A study of Homo sapiens with 6 samples.

Results

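The mitosis and spindle checkpoint genes are 42 named genes that act from the entry into mitosis to the separation of the daughter cells. They were found by gene symbol in a table of 58735 genes, and each symbol matched 1 gene. The study transfected HCT116, a wild-type human colorectal cancer cell line, with 50 nM miR-8485 mimics, synthetic copies of a microRNA, and its methods give 48 h as the general collection time after transfection. Control-transfected cells (CTR) are the only other group. Each group has 3 libraries of total RNA, which the labels call independent biological replicates, while the control's sequence and dose are not given in the sources used here. All 6 libraries come from 1 established line at 1 time point, so the values describe this culture and not other colorectal cells. Levels are in FPKM, fragments scaled by gene length and by the library's total, which sets genes of different length on 1 scale.

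Cells enter mitosis when cyclin B activates the kinase CDK1, which WEE1 and PKMYT1 restrain and the CDC25 phosphatases release. Chromosomes then attach to spindle microtubules through kinetochores, and the spindle assembly checkpoint holds back the anaphase-promoting complex (APC/C) until every chromosome is attached. In dividing cells most of these genes are transcribed in a wave that peaks in G2 and mitosis, and MYBL2, FOXM1 and the MuvB complex are the known drivers of that wave. A bulk level therefore mixes the number of cells in G2 and mitosis with the RNA per cell, and in these libraries fewer such cells and less RNA per cell cannot be told apart.

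A microRNA pairs with messenger RNAs mainly through its seed, bases 2 to 8. The mimic is shown first, as the study's supplementary methods give it, with the seed in capitals. Below it stand windows of 30 bases around matches to that seed in the 3′ UTRs of 5 members: AURKA, CDK1 and NEK2, which fell most among the holders of a match, CDC25B, which has the longest run of them, and BIRC5, which was not called. The matching word is TGTGTGT, it is in capitals, and the windows are written 5′ to 3′ on the gene's strand of GRCh38 (GENCODE release 44).
miR-8485 mimic: cACACACAcacacguau
AURKA, chr20:56369608-56369637, minus strand: tttaggaatgcTGTGTGTctgtccggcacc
AURKA, chr20:56369414-56369443, minus strand: gagtcatagcaTGTGTGTaaactttaaata
CDK1, chr10:60794152-60794181, plus strand: aattctgtaaaTGTGTGTaggtctcactgt
NEK2, chr1:211663158-211663187, minus strand: gcttttaatccTGTGTGTgattactagtag
CDC25B, chr20:3805289-3805318, plus strand: acgctccttTGTGTGTGTGTcagctgaggc
BIRC5, chr17:78224082-78224111, plus strand: gatgcatgactTGTGTGTgatgagagaatg

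The word was present in the canonical 3′ UTR of 13 of the 41 members that were tested for a change, or 31.7%, against 28.9% of the 10675 tested genes that have such a UTR. In the longest annotated 3′ UTR the word was in 14 members (34.1%), against 31.4%, and that UTR of AURKA held none. Member UTRs were shorter, with a median of 654 bases against 1290 bases. Tested members with the word had a median log2 fold change of -0.55 (n = 13), and those lacking it had one of -0.77 (n = 28). Over all tested genes the order was the other way, with -0.16 for the 3086 with the word and 0.02 for the 7589 lacking it. SPC25, NUF2, BUB1, ANLN, MYBL2 and AURKB, which are 6 of the 9 members that fell by 1 or more on the log2 scale, held no copy of the word in these UTRs. The canonical UTR lacked it in 28 of all 41 members and in 7589 of the 10675 tested genes, so 6 of 9 was near both shares. A match is a description of letters and not a measured binding site.

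Members were read at low to high levels, and 41 of the 42 reached a mean of 1 FPKM over the 6 libraries, the minimum set for testing. In CTR these 41 ran from 3.58 FPKM for CENPE to 131 FPKM for CDC20, with a median of 19.6 FPKM against 6.11 FPKM over all 12349 tested genes. Between 156 and 5219 fragments lay behind each of their values in a library. Only PRC1 stayed below the minimum. Across the 41 genes, which are not independent replicates, CTR level and log2 fold change had a Spearman's rho of -0.26, as a description.

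Of the 41, 38 were downregulated, 1 was upregulated and 2 were not called, by limma on log2(FPKM + 0.1) at an adjusted p under 0.05. That is 92.7% downregulated, where 30.5% of all tested genes were downregulated and 29.1% upregulated. The median log2 fold change of the members was -0.75, with a range of -1.57 to 0.14, and the median over all tested genes was -0.0041. Every miR-8485 library lay below every CTR library in 38 of the 41 tested members, and in 34.0% of all tested genes. These were the same 38 that were called, and the order and the call rest on the same values. A log2 fold change of -1 or lower was reached by 9 members, SPC25, NUF2, BUB1, ANLN, AURKA, CDK1, MYBL2, NEK2 and AURKB, and by 4.49% of all tested genes. Relative to the CTR mean, the member levels in miR-8485 lay between 33.4% and 110%.

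The fall was shared by the 3 miR-8485 libraries. Taking each member against its CTR mean, the median difference on the log2 scale was -0.79, -0.76 and -0.71 in miR-8485 libraries 1, 2 and 3, and was at most 0.02 in a CTR library. In each miR-8485 library 40 of the 41 members were below their CTR mean, compared with 17 to 21 of them in a CTR library. The CTR libraries themselves make up that mean, so their values lie on both sides of it by construction.

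**Figure D1:**
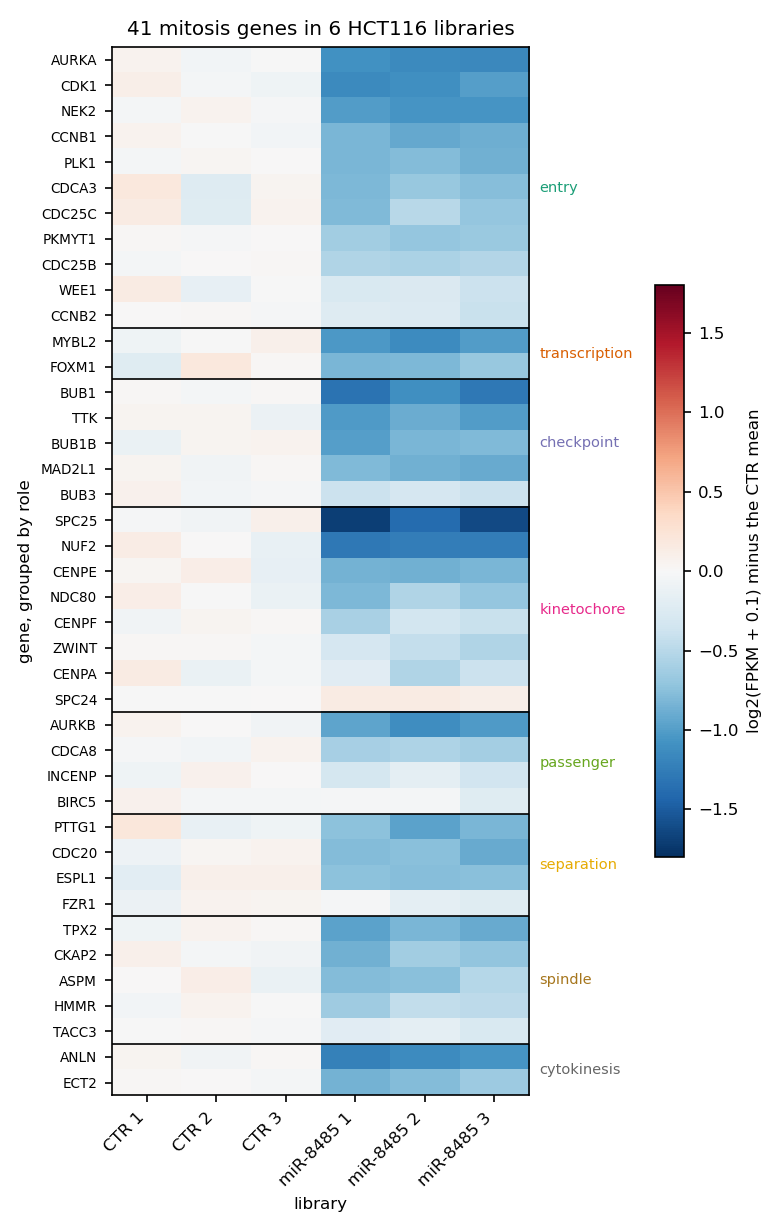
Heat map of 41 mitosis genes (vertical axis, grouped by role) in the 6 libraries (horizontal axis). Colour gives log2(FPKM + 0.1) minus the mean of the 3 CTR libraries, blue for lower and red for higher; the miR-8485 columns are blue for nearly every gene, deepest for SPC25, and red for SPC24.

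Among the 11 genes of mitotic entry, all 11 fell, with a median log2 fold change of -0.75 and a range of -1.13 to -0.29. AURKA (chr20:56369389-56392337), the kinase that matures centrosomes and helps activate PLK1, was at 33.2, 30.8 and 31.7 FPKM in CTR and at 14.9, 14.4 and 14.2 FPKM in miR-8485 (log2 fold change -1.13 ± 0.05 SE, limma adjusted p = 3.65e-06). CDK1 (chr10:60778331-60794852), the kinase that drives the cell into mitosis, gave 49.2, 44.5 and 43.3 FPKM in CTR against 20.5, 21.2 and 22.9 FPKM (-1.08 ± 0.07, limma adjusted p = 1.37e-05). NEK2, which splits the centrosome pair, went from 19.0, 20.4 and 19.3 FPKM to 9.73, 9.29 and 9.28 FPKM (-1.04 ± 0.05, limma adjusted p = 5.74e-06). For these 3 kinases every miR-8485 library was far below every CTR library, with AURKA at 45.5%, CDK1 at 47.1% and NEK2 at 48.2% of the CTR mean.

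The B-type cyclins, which activate CDK1, both fell. CCNB1 was at 101, 96.7 and 93.4 FPKM in CTR and 54.6, 51.3 and 52.7 FPKM in miR-8485 (log2 fold change -0.88 ± 0.05, limma adjusted p = 8.92e-06). CCNB2 was at 22.2, 22.5 and 21.9 FPKM in CTR and 18.8, 18.6 and 16.9 FPKM in miR-8485 (-0.29 ± 0.05, limma adjusted p = 0.00262). The ratio of CCNB1 to CCNB2 within a library was 4.37 ± 0.157 (SD, n = 3) in CTR and 2.93 ± 0.188 in miR-8485, with no overlap (exact two-sided permutation p = 0.1, the smallest that 3 against 3 can give; 0.114 after adjustment over 8 ratios).

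Both the brakes on CDK1 and the phosphatases that lift them were lower. WEE1, the nuclear inhibitory kinase, was at 7.89, 6.38 and 7.09 FPKM in CTR and 5.85, 5.92 and 5.42 FPKM in miR-8485 (log2 fold change -0.30 ± 0.08, limma adjusted p = 0.0166), and without miR-8485 replicate 3 its adjusted p was 0.0575. PKMYT1, the membrane-bound inhibitory kinase, had a mean of 15.0 ± 0.288 FPKM in CTR and 9.46 ± 0.217 FPKM in miR-8485 (-0.66). CDC25B, which starts CDK1 activation, had 50.6 ± 0.933 FPKM against 34.5 ± 0.522 FPKM (-0.55), and CDC25C, which completes it, 6.5 ± 0.867 FPKM against 4.05 ± 0.429 FPKM (-0.67). The ratio of CDC25C to WEE1 was lower in miR-8485 in every library, at 0.706 ± 0.069 against 0.912 ± 0.0452, whereas the ratio of CDC25B to PKMYT1 was higher in every library, at 3.65 ± 0.0647 against 3.37 ± 0.121 (exact permutation p = 0.1 for each). The ratio of CDC25B to WEE1 overlapped between groups, at 6.03 ± 0.368 in miR-8485 and 7.17 ± 0.867 in CTR (exact permutation p = 0.2). The activator to inhibitor ratios in miR-8485 thus lay on either side of their CTR values, depending on the pair.

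PLK1, the kinase that acts at centrosomes, kinetochores and the midbody, dropped from 36.0 ± 0.797 FPKM to 20.3 ± 0.571 FPKM (log2 fold change -0.82). CDCA3, which helps the cell destroy the CDK1 inhibitor WEE1, dropped from 6.38 ± 0.969 FPKM to 3.72 ± 0.178 FPKM (-0.75). PKMYT1 shares 24.7% of its annotated exon bases with PAQR4 and CDCA3 shares 11.3% with GNB3, each on the opposite strand. The strand setting of the counting is not given in the sources used here, so reads of such partners cannot be told apart.

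The pair of transcription factors in the group was lower as well. MYBL2, which joins the MuvB complex to switch on late cell cycle genes, was at 46.8, 48.9 and 52.5 FPKM in CTR and 24.0, 22.4 and 24.5 FPKM in miR-8485 (log2 fold change -1.06 ± 0.06, limma adjusted p = 9.76e-06). FOXM1, which takes over on the same complex, was at 16.9, 22.5 and 20.1 FPKM in CTR and 11.0, 11.2 and 12.2 FPKM in miR-8485 (-0.77 ± 0.10, limma adjusted p = 0.00049). The CTR libraries spread more for FOXM1 than for MYBL2, and neither gene's groups overlapped. FOXM1 shares 15.9% of its exon bases with ITFG2 on the opposite strand, which had 117 to 168 fragments a library against 972 to 1998 for FOXM1.

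**Figure D2:**
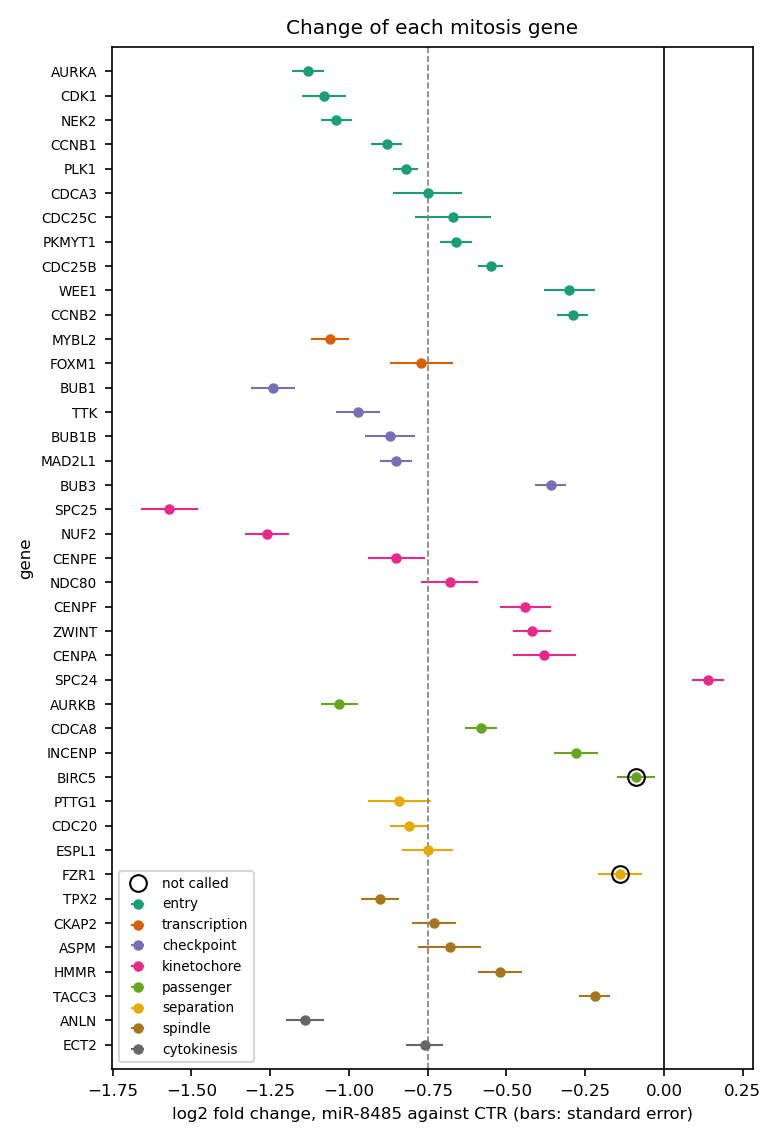
Log2 fold change of each of 41 mitosis genes, miR-8485 against CTR (horizontal axis), with bars of 1 standard error from the limma fit over 3 libraries a group; genes are grouped by role (colour). The dashed line is the median of -0.75; SPC24 alone lies right of zero, and the circled BIRC5 and FZR1 were not called.

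Of the spindle assembly checkpoint, all 5 genes in the group fell, with a median log2 fold change of -0.87. MAD1L1, named as a checkpoint gene outside the group, was not called and its groups overlapped (-0.13, limma adjusted p = 0.278). BUB1 (chr2:110637698-110678114), the kinase that recruits other checkpoint proteins to kinetochores, was at 18.8, 18.1 and 18.7 FPKM in CTR and 7.28, 8.58 and 7.54 FPKM in miR-8485 (-1.24 ± 0.07, limma adjusted p = 9.68e-06). TTK, the kinase known as MPS1 that starts the checkpoint signal, was at 12.8, 12.8 and 11.5 FPKM against 6.02, 6.60 and 6.10 FPKM (-0.97 ± 0.07, limma adjusted p = 2.08e-05). BUB1B, which encodes BUBR1, was at 14.0, 15.8 and 16.0 FPKM against 7.58, 8.60 and 8.72 FPKM (-0.87 ± 0.08, limma adjusted p = 7.19e-05). BUBR1, MAD2 and BUB3 together bind CDC20 in the complex that inhibits the APC/C. MAD2L1, which encodes MAD2, dropped from 25.7 ± 1.03 FPKM to 14.2 ± 0.572 FPKM (-0.85), and BUB3, the shared partner of BUB1 and BUBR1, from 33.1 ± 1.52 FPKM to 25.8 ± 0.852 FPKM (-0.36 ± 0.05, limma adjusted p = 0.000666). BUB3 thus kept 77.9% of its CTR level where BUB1 kept 42.1%. The ratio of BUB1 to BUB3 was 0.559 ± 0.0194 in CTR and 0.302 ± 0.0167 in miR-8485 (exact permutation p = 0.1).

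The kinetochore held both the deepest fall and the only rise. Of its 8 members, 7 fell and 1 rose, with a median log2 fold change of -0.56. The NDC80 complex is the rod that binds microtubules, and the log2 fold changes of its 4 subunits spanned -1.57 to 0.14. SPC25 (chr2:168834132-168913371) was at 15.3, 14.8 and 16.4 FPKM in CTR and 4.72, 5.89 and 4.93 FPKM in miR-8485 (-1.57 ± 0.09, limma adjusted p = 1.1e-05). NUF2 (chr1:163266576-163355764) was at 13.5, 12.3 and 11.2 FPKM against 4.98, 5.13 and 5.14 FPKM (-1.26 ± 0.07, limma adjusted p = 1.2e-05). NDC80 was at 11.3, 10.3 and 9.52 FPKM against 5.88, 7.11 and 6.33 FPKM (-0.68 ± 0.09, limma adjusted p = 0.000481). In all 3 subunits the highest miR-8485 library was below the lowest CTR library.

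SPC24, the direct partner of SPC25 in that rod, lay the other way at a small size. SPC24 (chr19:11131520-11155808) was at 6.49, 6.48 and 6.52 FPKM in CTR and 7.22, 7.22 and 7.03 FPKM in miR-8485 (0.14 ± 0.05, limma adjusted p = 0.0392), with no overlap. The call did not last: it was lost in 13 of the 18 other settings, every one that left out a library included, with an adjusted p of up to 0.731 and a log2 fold change of 0.02 when levels were expressed as TPM. The ratio of SPC25 to SPC24, chosen after the values were seen, was 2.38 ± 0.122 in CTR and 0.723 ± 0.0826 in miR-8485, so that SPC25 was above SPC24 in every CTR library and below it in every miR-8485 library (exact permutation p = 0.1).

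The other kinetochore and centromere members fell. CENPE, the motor that carries chromosomes to the spindle equator, was at 3.65, 3.89 and 3.21 FPKM in CTR and 1.93, 1.92 and 1.98 FPKM in miR-8485 (log2 fold change -0.85 ± 0.09, limma adjusted p = 0.0002). CENPF, a large protein of the outer kinetochore, dropped from 10.9 ± 0.453 FPKM to 8.02 ± 0.731 FPKM (-0.44). ZWINT, which tethers a checkpoint complex at the kinetochore, dropped from 44.6 ± 0.947 FPKM to 33.3 ± 2.77 FPKM (-0.42). CENPA, the histone H3 variant that marks the centromere, was at 10.9, 9.0 and 9.58 FPKM in CTR and 8.54, 6.69 and 7.44 FPKM in miR-8485 (-0.38 ± 0.10, limma adjusted p = 0.0159). The closest CENPA libraries were 9.0 and 8.54 FPKM, and its adjusted p was 0.0517 with no minimum level.

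The chromosomal passenger complex, in which AURKB is the kinase and INCENP, survivin (BIRC5) and borealin (CDCA8) place it at centromeres, had 3 subunits that fell and 1 that was not called. AURKB (chr17:8204733-8210600) was at 32.2, 30.9 and 29.5 FPKM in CTR and 15.9, 14.1 and 15.2 FPKM in miR-8485 (log2 fold change -1.03 ± 0.06, limma adjusted p = 1.14e-05). CDCA8 was at 27.8, 27.2 and 29.5 FPKM against 18.6, 19.2 and 18.5 FPKM (-0.58 ± 0.05, limma adjusted p = 4.77e-05). INCENP was at 11.1, 12.3 and 11.8 FPKM against 9.37, 10.4 and 9.24 FPKM (-0.28 ± 0.07, limma adjusted p = 0.00868). These 3 did not overlap between groups, and BIRC5 did. BIRC5 was at 46.9, 43.1 and 43.0 FPKM in CTR and 43.4, 43.1 and 38.2 FPKM in miR-8485 (-0.09 ± 0.06, limma adjusted p = 0.242). AURKB stood at 0.697 ± 0.0179 times BIRC5 in CTR and at 0.364 ± 0.0349 times in miR-8485, a ratio chosen after the values were seen (exact permutation p = 0.1).

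**Figure D3:**
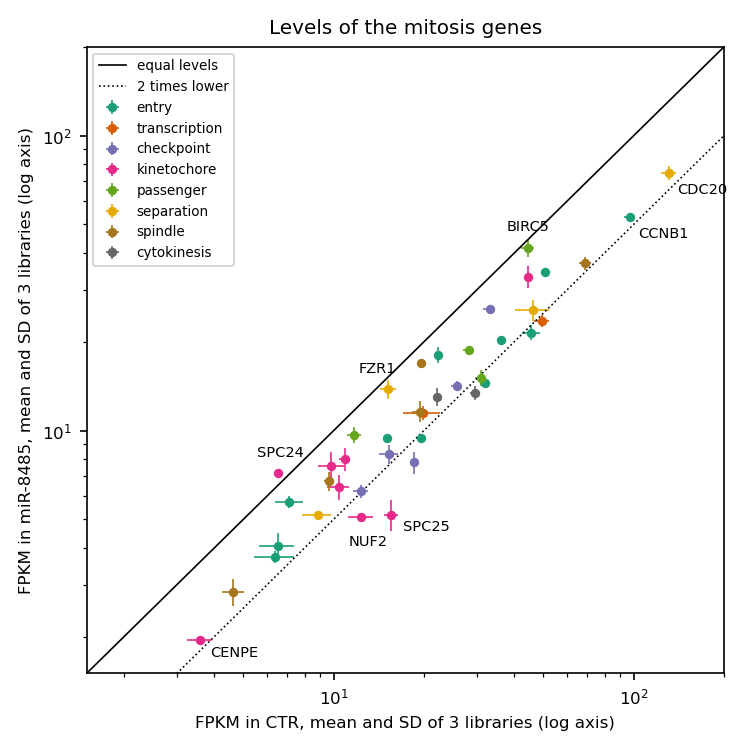
Mean FPKM of each of 41 mitosis genes in CTR (horizontal log axis) against miR-8485 (vertical log axis), with bars of 1 SD over 3 libraries. Nearly all points lie below the solid line of equal levels; SPC25 and NUF2 lie below the dotted line of 2 times lower, BIRC5 and FZR1 lie near the solid line, and SPC24 lies above it.

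Of the 4 genes that control the separation of sister chromatids, 3 fell and FZR1 was not called. PTTG1, or securin, which holds separase inactive until anaphase, was at 53.0, 42.1 and 43.5 FPKM in CTR and 27.4, 23.4 and 26 FPKM in miR-8485 (log2 fold change -0.84 ± 0.10, limma adjusted p = 0.000256). ESPL1, which is separase itself, was at 7.68, 9.39 and 9.41 FPKM against 5.21, 5.14 and 5.16 FPKM (-0.75 ± 0.08, limma adjusted p = 0.000225). Inhibitor and protease thus stood at 55.4% and 58.6% of their CTR means, and the difference between them was not tested. CDC20 (chr1:43358955-43363203), the coactivator that turns the APC/C on at anaphase, was at 123, 133 and 136 FPKM against 76.3, 77.8 and 69.9 FPKM (-0.81 ± 0.06, limma adjusted p = 3.14e-05).

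FZR1, or CDH1, the coactivator that replaces CDC20 in late mitosis and G1, was at 14.1, 15.9 and 15.7 FPKM in CTR and 15.0, 13.5 and 13.0 FPKM in miR-8485 (log2 fold change -0.14 ± 0.07, limma adjusted p = 0.132). Its groups overlapped through CTR replicate 1 and miR-8485 replicate 1. Without CTR replicate 1 it was called as lower (-0.19, limma adjusted p = 0.0484), and leaving out any other single library gave no call. CDC20 was at 8.59 ± 0.156 times FZR1 in CTR and 5.41 ± 0.339 times in miR-8485 (exact permutation p = 0.1).

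All 5 spindle assembly members fell, with a median log2 fold change of -0.68. TPX2, which activates AURKA on spindle microtubules, was at 65.3, 71.9 and 69.7 FPKM in CTR and 35.2, 39.0 and 36.8 FPKM in miR-8485 (-0.90 ± 0.06, limma adjusted p = 1.61e-05). CKAP2, a microtubule-stabilising protein, was at 20.7, 19.0 and 18.5 FPKM against 10.6, 12.5 and 11.8 FPKM (-0.73 ± 0.07, limma adjusted p = 0.000133). ASPM, which acts at spindle poles, was at 4.65, 5.0 and 4.21 FPKM against 2.65, 2.68 and 3.19 FPKM (-0.68 ± 0.10, limma adjusted p = 0.000813). TPX2 and its partner AURKA were both clear of overlap, with TPX2 at 53.7% and AURKA at 45.5% of the CTR mean. HMMR, a spindle and hyaluronan-binding protein, dropped from 9.68 ± 0.38 FPKM to 6.75 ± 0.509 FPKM (-0.52). TACC3, which crosslinks kinetochore fibres, dropped least, from 19.6 ± 0.348 FPKM to 16.9 ± 0.642 FPKM (-0.22 ± 0.05, limma adjusted p = 0.00513).

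Cytokinesis was represented by ANLN, ECT2 and PRC1. ANLN (chr7:36389806-36453791), or anillin, the scaffold of the contractile ring, was at 30.6, 28.4 and 30 FPKM in CTR and 12.7, 13.5 and 14.1 FPKM in miR-8485 (log2 fold change -1.14 ± 0.06, limma adjusted p = 6.53e-06). ECT2, which activates RhoA at the cell equator, was at 22.4, 22.1 and 21.6 FPKM against 12.2, 12.8 and 14.0 FPKM (-0.76 ± 0.06, limma adjusted p = 4.07e-05). Neither gene overlapped between groups.

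PRC1, which bundles the midzone microtubules, had only 4 to 15 fragments a library, at 0.141, 0.12 and 0.08 FPKM in CTR and 0.0403, 0.1 and 0.143 FPKM in miR-8485. The groups overlapped, no change was detectable with so few fragments, and with no minimum level the log2 fold change was -0.16 (limma adjusted p = 0.771). In the annotation, PRC1 shares 57.6% of its exon bases with the same-strand gene model AC068831.7, which had 30 to 64 fragments a library, and 34.3% with the opposite-strand PRC1-AS1. The part of these overlaps in the low PRC1 value was not tested.

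Promoter sequence was examined because genes of this wave are known to carry the cell cycle genes homology region (CHR), a word through which the MuvB complex binds, together with CCAAT boxes. RefSeq promoters (GRCh38.p14, 250 bases before to 50 after the gene start) were matched for 34 of the 42 members; AURKA, BIRC5, BUB3, FOXM1, PKMYT1, TPX2, TTK and WEE1 were not matched. Windows of 30 bases on the gene's strand are given for 6 members, one or more from the roles of entry, checkpoint, kinetochore, passenger complex and cytokinesis, with the CHR word in capitals. ANLN holds a further copy on the other strand directly before the one in capitals, left in lower case.
PLK1, chr16:23678848-23678877, plus strand: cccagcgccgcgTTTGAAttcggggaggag
CCNB2, chr15:59105105-59105134, plus strand: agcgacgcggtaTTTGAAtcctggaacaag
BUB1B, chr15:40161034-40161063, plus strand: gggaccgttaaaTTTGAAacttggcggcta
SPC25, chr2:168890416-168890445, minus strand: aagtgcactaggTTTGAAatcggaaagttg
CDCA8, chr1:37692481-37692510, plus strand: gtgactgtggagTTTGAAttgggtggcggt
ANLN, chr7:36389830-36389859, plus strand: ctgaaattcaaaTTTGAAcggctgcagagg

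The CHR word TTTGAA, read on both strands (TTCAAA on the other), was present in 22 of the 34 member promoters, or 64.7%, against 9.05% of the promoters of 8766 tested genes and 15.4% of all 27305 promoters. Its first base lay 50 bases or less before the gene start, or after it, in 18 of the 34 (52.9%), against 2.68% of tested genes and 4.67% of all promoters. CCAAT, or ATTGG on the other strand, was in 23 of the 34 (67.6%), against 37% and 35.7%. Both words were in 17 of the 34 (50%), against 3.94% and 6.08%. Neither word contains the other. SPC24 held no CHR word and 3 CCAAT words, and its partner SPC25 held 2 of each.

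Holding the word in this window did not order the matched members by their fall. Only exact copies in a single promoter per gene were searched, so a member counted as without the word may hold it elsewhere. The median log2 fold change was -0.75 in the 21 tested members with a CHR word (range -1.57 to -0.14) and -0.85 in the 12 without it (range -1.24 to 0.14). Of tested genes outside the group, the 772 with a CHR word anywhere in the window had a median of -0.08 and 34.6% of them were downregulated, close to the median of -0.02 and 32.5% for the 7961 without the word. The 329 with CHR and CCAAT words had a median of -0.10 and 36.5% downregulated, and the 218 with a CHR word in the stretch near the start had -0.23 and 48.6%. These are descriptions of letters, and binding was not measured.

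**Figure D4:**
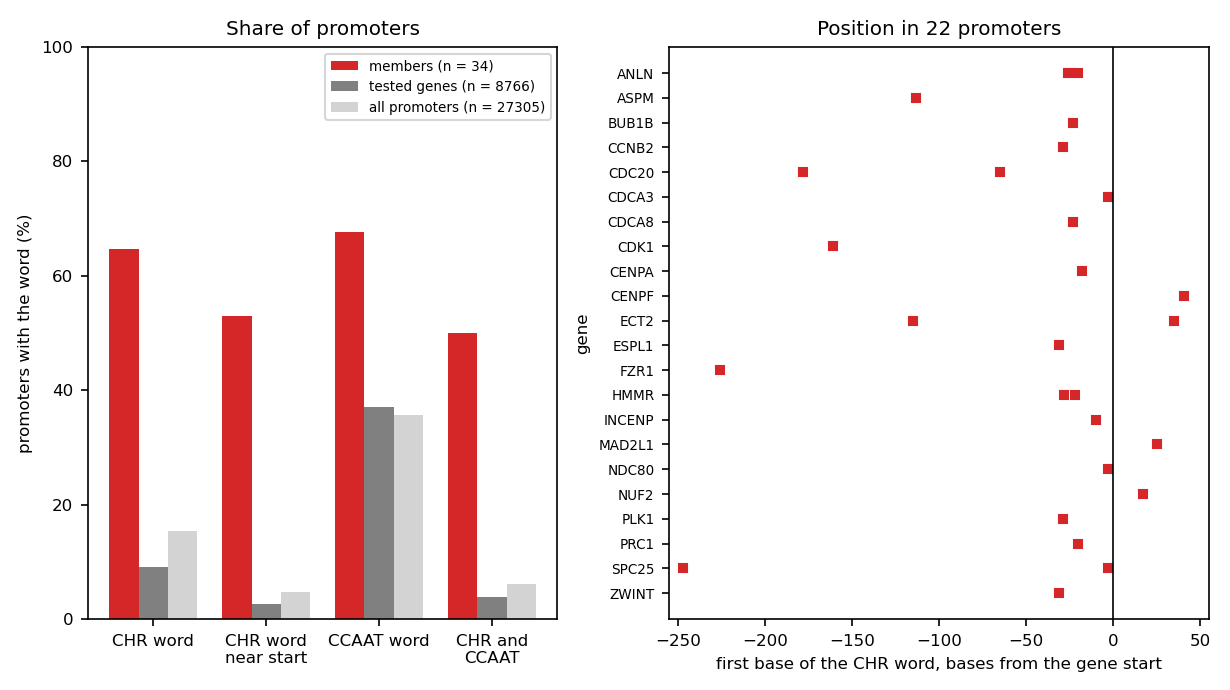
Left, share of promoters (vertical axis, percent) that hold the CHR word, the CHR word near the start, the CCAAT word or CHR and CCAAT, for 34 members, 8766 tested genes and all 27305 promoters. Right, position of each CHR word in 22 member promoters, in bases from the gene start (horizontal axis); most lie just before the start line.

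Genes that work beside the members were taken from lists of known cell cycle genes. Each count is to be read against all tested genes, of which 30.5% were downregulated and 29.1% upregulated. Of 24 other G2/M genes, 23 were downregulated (95.8%) and none upregulated, with a median log2 fold change of -0.72. MKI67, the proliferation marker that coats mitotic chromosomes, was at 25.1, 27.9 and 29.5 FPKM in CTR and 6.14, 6.56 and 6.06 FPKM in miR-8485 (-2.12 ± 0.07, limma adjusted p = 2.16e-06), a lower log2 fold change than that of any member. PBK, a mitotic kinase, dropped from 58.3 ± 2.76 FPKM to 20.4 ± 0.751 FPKM (-1.51). CKS1B, the exception, was at 38.4 ± 3.57 FPKM and 33.8 ± 0.217 FPKM (-0.18, limma adjusted p = 0.0528).

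Kinetochore and centromere genes outside the group changed less uniformly by count. Of 30 tested, 21 fell (70.0%), 1 rose and 8 were not called, with a median of -0.50. CENPQ, of the inner kinetochore, dropped from 13.1 ± 1.24 FPKM to 5.66 ± 0.817 FPKM (-1.20), and SKA2, which helps the NDC80 rod hold microtubules, from 15.8 ± 0.47 FPKM to 6.88 ± 0.344 FPKM (-1.19). The 1 that rose was ZW10, a part of the checkpoint complex that ZWINT tethers, from 5.94 ± 0.657 FPKM to 10.9 ± 0.238 FPKM (0.87), named because it was the only rise.

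The APC/C itself is the machine that CDC20 and FZR1 activate. Of its 17 subunits and cofactors, 6 fell (35.3%), 4 rose and 7 were not called, with a median of -0.01 and a range of -1.09 to 0.90. The share that fell was near the 30.5% of all tested genes. The deepest falls were of the cofactors FBXO5 and UBE2C. FBXO5, the APC/C inhibitor EMI1, dropped from 10.9 ± 0.468 FPKM to 5.06 ± 0.236 FPKM. UBE2C, a ubiquitin-conjugating enzyme of the APC/C, dropped from 99.1 ± 6.45 FPKM to 47.9 ± 2.85 FPKM. Of 8 tested MuvB and DREAM genes, 4 fell and 2 rose. LIN52, a MuvB subunit, dropped from 3.15 ± 0.305 FPKM to 1.26 ± 0.0373 FPKM (-1.25), and RBL2, the p130 pocket protein that forms the repressive DREAM complex, rose from 2.33 ± 0.262 FPKM to 4.31 ± 0.343 FPKM (0.86).

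The 6 genes of the B55 phosphatase pathway, which reverses CDK1 phosphorylation at mitotic exit, gave 2 that fell (33.3%) and 3 that rose. Their median was -0.02, and the share that fell was near the 30.5% of all tested genes. ENSA, an inhibitor of that phosphatase, rose from 14.1 ± 1.04 FPKM to 21.9 ± 0.51 FPKM (0.63), and PPP2CA, its catalytic subunit, dropped from 42.7 ± 2.93 FPKM to 33.4 ± 0.728 FPKM (-0.35). Of 26 G1/S genes, which act before mitosis, 21 fell (80.8%), 2 rose and 3 were not called, with a median of -0.48. RRM2, a subunit of ribonucleotide reductase, dropped from 54.2 ± 1.74 FPKM to 22.1 ± 0.928 FPKM (-1.29), and CLSPN, a replication checkpoint adaptor, from 2.86 ± 0.225 FPKM to 1.16 ± 0.158 FPKM (-1.24). Lower levels were thus also measured in genes of the preceding cell cycle phase, and the difference between that list and the members was not tested.

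**Figure D5:**
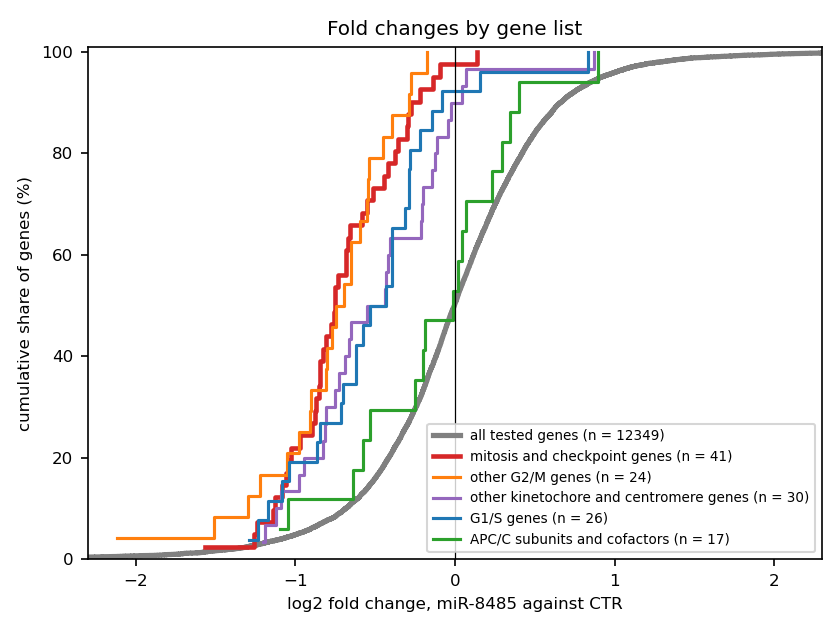
Cumulative share of genes (vertical axis, percent) by log2 fold change, miR-8485 against CTR (horizontal axis), for all 12349 tested genes, the 41 mitosis genes and 4 lists of related genes. The mitosis genes and the other G2/M genes run left of all tested genes over their whole range, and the APC/C genes follow the grey curve more closely.

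The 6 libraries held 17473874 to 18480047 fragments in genes and differed more between groups than within them. Mitochondrial genes took 7.94% to 10.2% of fragments in CTR and 10.6% to 11.3% in miR-8485, and the part of that difference in the member values was not tested. Of the epithelial markers, EPCAM (135 ± 11.7 against 130 ± 3.48 FPKM) and CDH1 overlapped between groups, while KRT8, KRT18 and KRT19 were high and lower in miR-8485, from 572 to 292 FPKM for KRT18. Of 8 markers of stromal, endothelial and blood cells, COL1A1 alone was tested (4.25 ± 0.173 against 6.31 ± 0.077 FPKM), while CD3E and DCN were listed at 0 in every library and no other marker passed 0.405 FPKM.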

How the data were processed

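RNA-seq was made from 3 CTR and 3 miR-8485 libraries of HCT116 cells. Per the submitters' processing notes the authors used HISAT2 2.0.5, featureCounts 1.5.0-p3 and hg38, and they deposited FPKM per gene with gene lengths in bases; the annotation release and the strand setting are not given in the sources used here. FPKM is relative to each library's fragments, so a few abundant genes can shift all other values. Whole fragments could be recovered from 100% of values (tolerance 0.01 fragments), giving 17473874 to 18480047 per library. The mean chi-square per gene was 2.75 to 10.5 between libraries of a group and 61.0 to 70.3 between groups, so no library was a copy of another.

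Because the deposited values are FPKM, log2(FPKM + 0.1) was tested with limma 3.58.1 (R 4.3.3, variance trend, two-sided) over genes with a mean of at least 1 FPKM, with Benjamini-Hochberg adjustment over all 12349 and calls at 0.05. Its p-values weigh the difference of group means against the spread between 3 libraries a group, moderated by a trend over all tested genes. Ratios were tested by exact permutation over libraries. On simulated libraries the fit recovered 89 of 95 changes of 1.0 on the log2 scale and 45 of 98 changes of 0.5. It made 11 false calls among 12400 tested genes. The simulated spread was set alike for every gene, so these rates need not hold for the real libraries. Members are the 42 genes; full values are given for up to 3 with the largest log2 fold change in each role and for every member that rose or was not called (those of CCNB1, CCNB2, WEE1, NDC80 and CENPA, and the test values of BUB3 and TACC3, go beyond this rule and were added after their values were seen), and from each related list for the 2 with the largest change among called genes whose groups do not overlap. Members and lists were chosen with earlier results of these data known. Alternatives were other pseudocounts, filters, scalings, TPM, voom on recovered fragments, a replicate block, leaving out each library, and, chosen after seeing the data, removal of a gene length or GC trend. There were 0 value columns without a sample. UTRs came from GENCODE release 44 and promoters from RefSeq GRCh38.p14; file coordinates are hg38, and 21 of the 42 member starts equal those of release 44.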

Additional observations from a re-analysis of the deposited data

How the results depend on the processing

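The count of downregulated members was 36 to 40 in the 18 other settings and 30 when a log2 fold change of at least 0.5 was also required, with 37 to 39 when 1 library was left out, and 36 of the 38 were downregulated in each of those settings that tested them; the exceptions were WEE1 (adjusted p = 0.0575 without miR-8485 replicate 3 and 0.11 with the gene length trend removed, limma) and CENPA (0.0517 with no filter). The count of upregulated members, 1, became 0 with no filter, with a mean of at least 5 FPKM, with TPM, with voom, with the length or GC trend removed, and with a log2 fold change of at least 0.5, and was 0 to 0 when 1 library was left out. The median of the members was -0.67 with a pseudocount of 1, -0.88 with TPM and -0.71 with the length trend removed. TPM moved the median of all genes to -0.12, the upregulated share of calls from 48.8% to 35.6%, and called BIRC5 (-0.21, adjusted p = 0.0307) and FZR1 (-0.26, adjusted p = 0.00758) as lower in limma; relative to that shift their changes were near those reported. FZR1 was also called with the GC trend removed (-0.28, adjusted p = 0.00786); members had a median GC content of 45.2% against 49.1%. The number of all genes downregulated was 2417 at a mean of at least 5 FPKM and 1856 at a log2 fold change of at least 0.5, and that of all genes upregulated was 2303 and 1789. Replicate numbers did not pair the libraries (correlations of deviations 0.0668, 0.0335 and -0.064); with the replicate block 38 members were downregulated and 0 upregulated. The cause of these differences was not tested. Only PRC1 had too few fragments to compare, and the part of its overlapping gene models in that was not tested.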
